A study of Saccharomyces cerevisiae with 8 samples.

Results

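The interiors of long protein-coding genes were examined for CENP-A Cse4, the histone H3 variant that marks the budding yeast centromere. A gene entered if it was nuclear, protein-coding and at least 1500 bp long in the R64 (sacCer3) annotation. Its interior was every base at least 500 bp from both annotated ends, more than 10 kb from a centromere and more than 20 kb from a chromosome end. These conditions were met by 2134 of the 2248 genes of that length, out of 6002 nuclear protein-coding genes in all. Of the 2134 interiors, 120 lay on chromosome XI, which is described apart, and 2014 lay on the other 15 chromosomes. The 2014 interiors covered 3118923 bp, or 29.7% of the chromosome arms defined by the same distances. No measured value was used to choose them.

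The data were 8 peak lists, 1 from MNase-digested chromatin (input) and 1 from an anti-Flag immunoprecipitate of it (ChIP) for each of 4 *Saccharomyces cerevisiae* strains. All 4 strains were asynchronous cultures of the W303 background grown in lactic acid medium, given 2% galactose for 2 h and crosslinked with 1% formaldehyde for 15 min. Each strain lacked the endogenous *CSE4* gene and carried Flag-tagged *3Flag-CSE4* under the *CSE4* promoter at *URA3*, so the tagged protein was the sole source of Cse4. The *psh1Δ pGAL-3Flag-CSE4* strain lacked *PSH1* and had an added galactose-driven *3Flag-CSE4* copy at *LEU2*, *pGAL-3Flag-CSE4* had that added copy with *PSH1* intact, *psh1Δ 3Flag-CSE4* lacked *PSH1* without the added copy, and *3Flag-CSE4* had *PSH1* and no added copy. Replicates were lacking, with 1 library for each strain and type. The strains were therefore compared without a test, and each interval is a 95% interval for counting error only.

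Cse4 replaces histone H3 in the single specialized nucleosome on which the yeast kinetochore is built. Psh1 is an E3 ubiquitin ligase that binds Cse4 and targets it for destruction by the proteasome, which keeps it off the chromosome arms. Coding sequence is wrapped in arrays of nucleosomes that are best positioned near the start of the gene, and elongating RNA polymerase II disturbs and rebuilds these arrays as it passes. In this reference, *CSE4*, *PSH1* and *LEU2* are themselves shorter than 1500 bp and therefore not among the interiors.

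The deposited lists hold peak positions without heights, because their score field was 0 in every line. In all, 14199, 4043, 66 and 17 ChIP peaks were listed for *psh1Δ pGAL-3Flag-CSE4*, for *pGAL-3Flag-CSE4*, for *psh1Δ 3Flag-CSE4* and for *3Flag-CSE4*, against 18908, 39937, 31268 and 40108 input peaks in the same order of strains. The *psh1Δ pGAL-3Flag-CSE4* input list was the smallest of the 4 inputs, although by the read depths the study states this library was sequenced more deeply than the inputs of both strains without the added copy and less deeply than the *pGAL-3Flag-CSE4* input. What set the size of that list was not tested. Chromosome XI stood apart from the other chromosomes in both *psh1Δ* inputs, with wider interior peaks and more interior centres per 10 kb than they had. Values for it are given beside those of the other chromosomes where they differ. A peak was assigned to the place where its centre lay.

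Only 2 ChIP lists had any peak centre in the interior of a long gene. Away from chromosome XI, 465 centres lay in interiors in *psh1Δ pGAL-3Flag-CSE4*, 7 in *pGAL-3Flag-CSE4*, 0 in *psh1Δ 3Flag-CSE4* and 0 in *3Flag-CSE4*. The 7 peaks of *pGAL-3Flag-CSE4* are shown first, since they are the interior sites called in a strain that still had *PSH1*. They lay in 6 genes. *SPO75* (chromosome XII, 2 peaks) is required for spore wall formation, *MSH4* (chromosome VI) encodes a meiotic MutS homologue that stabilizes crossover intermediates, *SMC4* (chromosome XII) a condensin subunit, *CSF1* (chromosome XII) a large lipid-transfer protein, *FKS3* (chromosome XIII) a relative of the glucan synthases and *PHM7* (chromosome XV) a membrane protein. Each sequence is the plus strand of R64 under the listed peak, within the gene, and capitals mark runs of at least 5 A or 5 T (AAAAA or TTTTT, which covers both strands).
*MSH4*, chrVI:135810-135880: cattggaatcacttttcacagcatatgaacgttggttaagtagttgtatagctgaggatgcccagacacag
*SPO75*, chrXII:139600-139650: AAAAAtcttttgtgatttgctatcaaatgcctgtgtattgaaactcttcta
*SPO75*, chrXII:139770-139820: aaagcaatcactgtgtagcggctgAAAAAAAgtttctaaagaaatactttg
*SMC4*, chrXII:303070-303130: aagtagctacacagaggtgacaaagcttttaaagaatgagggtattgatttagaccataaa
*CSF1*, chrXII:307350-307420: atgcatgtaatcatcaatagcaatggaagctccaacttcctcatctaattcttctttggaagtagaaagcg
*FKS3*, chrXIII:882620-882700: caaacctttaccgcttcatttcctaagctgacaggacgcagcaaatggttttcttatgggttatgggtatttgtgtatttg
*PHM7*, chrXV:163110-163160: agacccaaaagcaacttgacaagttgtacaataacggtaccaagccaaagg

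The 7 stretches were 51 to 81 bp long and 56.9% to 70.6% A+T, against 61.6% over all interior bases away from chromosome XI. Their centres lay from 751 bp after the annotated start (in *SPO75*) to 8346 bp after it (in *CSF1*), and 6 of the 7 fell in the 5′ side of their interior. The *CSF1* peak was the exception, with its centre 530 bp from the annotated end and thus just inside the limit that defines an interior.

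The gene with the most closely packed interior peaks in *psh1Δ pGAL-3Flag-CSE4* among the 8 with the most peaks was *PES4* on chromosome VI, which encodes a poly(A)-binding-like protein. Its 836 bp interior held 6 peaks whose centres lay 526, 686, 841, 1001, 1151 and 1321 bp after the annotated start. They are printed because they show what a filled interior looks like. All 6 lie in the coding region on the plus strand, and capitals have the same meaning.
*PES4*, chrVI:200370-200430: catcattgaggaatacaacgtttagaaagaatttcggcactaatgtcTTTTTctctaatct
*PES4*, chrVI:200520-200600: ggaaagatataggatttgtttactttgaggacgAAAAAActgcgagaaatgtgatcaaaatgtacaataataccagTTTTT
*PES4*, chrVI:200690-200740: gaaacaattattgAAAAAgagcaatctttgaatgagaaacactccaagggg
*PES4*, chrVI:200840-200910: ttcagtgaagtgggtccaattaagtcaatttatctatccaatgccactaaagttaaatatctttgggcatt
*PES4*, chrVI:200990-201060: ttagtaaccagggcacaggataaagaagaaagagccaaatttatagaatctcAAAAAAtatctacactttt
*PES4*, chrVI:201170-201220: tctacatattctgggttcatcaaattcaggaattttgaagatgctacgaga

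To ask how strongly long-gene interiors were spared, peak centres were counted per 10 kb and compared with the first and last 500 bp of the same genes. In *psh1Δ pGAL-3Flag-CSE4* the interiors held 1.49 ChIP centres per 10 kb (1.36 to 1.63), against 8.18 in the first 500 bp, 6.47 in the last 500 bp and 28.9 in intergenic sequence. In *pGAL-3Flag-CSE4* the interiors held 0.0224 per 10 kb (0.00902 to 0.0462), against 1.22 in the first 500 bp, 0.980 in the last 500 bp and 10.6 between genes. The interiors thus took 3.85% (3.52 to 4.21) of the 12066 arm centres in *psh1Δ pGAL-3Flag-CSE4* and 0.199% (0.0963 to 0.409) of the 3524 arm centres in *pGAL-3Flag-CSE4*, while making up 29.7% of the arms. In *psh1Δ 3Flag-CSE4* and *3Flag-CSE4* the count of 0 allows at most 0.0118 centres per 10 kb, and in both strains too few peaks lay on the arms (5 and 0) for the interiors to be set against other regions.

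**Figure D1:**
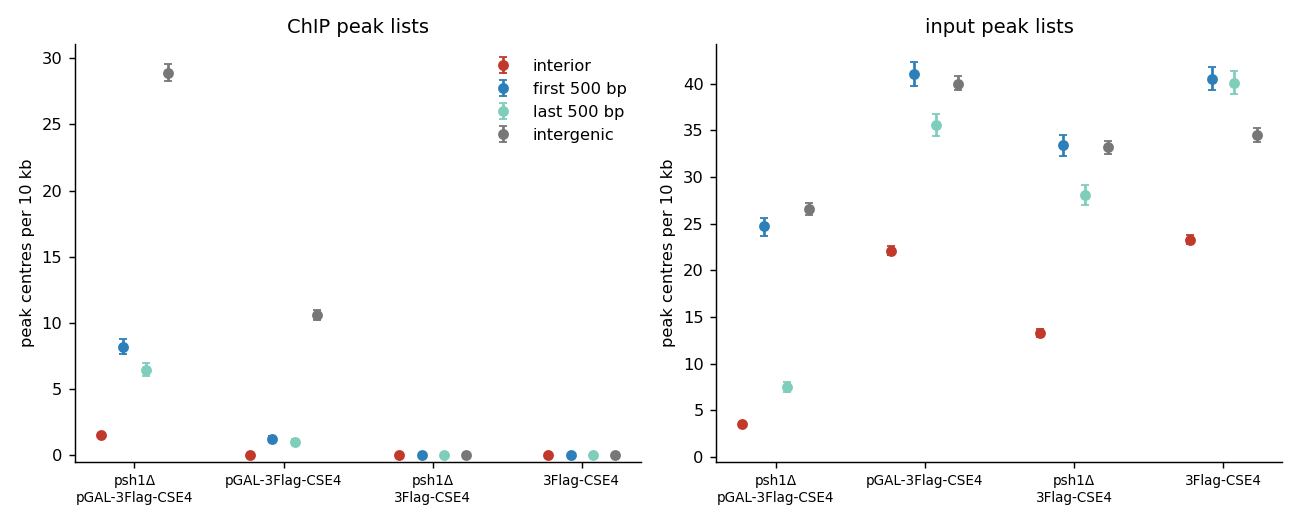
Peak centres per 10 kb in interiors, the first 500 bp, the last 500 bp and intergenic sequence of the 15 chromosomes other than XI, for the 4 ChIP lists (left) and the 4 input lists (right). Points are densities and bars are 95% Poisson intervals. Interiors are the lowest of the 4 regions in every input list and in both ChIP lists with the galactose-driven copy, at 1.49 and 0.0224 per 10 kb.

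Interior density was 0.203 (0.183 to 0.226) of the gene-end density for ChIP peaks in *psh1Δ pGAL-3Flag-CSE4* and 0.0204 (0.00809 to 0.0427) in *pGAL-3Flag-CSE4*. Interiors were also thinner in input peaks, which show where digestion and mapping let a nucleosome be called. The input ratios of interior to gene end were 0.222 (0.207 to 0.237) in *psh1Δ pGAL-3Flag-CSE4*, 0.577 (0.559 to 0.597) in *pGAL-3Flag-CSE4*, 0.434 (0.417 to 0.451) in *psh1Δ 3Flag-CSE4* and 0.577 (0.559 to 0.596) in *3Flag-CSE4*. With the *3Flag-CSE4* input as common divisor, the ChIP ratio was 0.352 (0.316 to 0.393) of the input ratio in *psh1Δ pGAL-3Flag-CSE4* and 0.0353 (0.0166 to 0.0749) in *pGAL-3Flag-CSE4*. With its own input as divisor, the *psh1Δ pGAL-3Flag-CSE4* value became 0.918 (0.810 to 1.04), an interval that contains 1. With both gene ends pooled, interiors were nearly as thin in that input as in its ChIP. The ends differed, with 24.7, 7.47 and 3.57 input centres per 10 kb in the first 500 bp, the last 500 bp and interiors. ChIP held 8.18, 6.47 and 1.49 there. Set against that input, interiors thus lay above the first 500 bp and below the last 500 bp. On chromosome XI the interval of the own-input value was 0.471 to 0.765, below 1. The *pGAL-3Flag-CSE4* value was 0.0353 with either divisor.

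The ratio of *psh1Δ pGAL-3Flag-CSE4* to *pGAL-3Flag-CSE4* was larger in interiors than at gene ends or between genes. For ChIP peaks it was 66.4 (32.0 to 166) in interiors, 6.68 (5.52 to 8.14) in the first 500 bp, 6.60 (5.33 to 8.25) in the last 500 bp and 2.74 (2.62 to 2.86) between genes. The interior interval does not meet any of the other 3, although it rests on 7 peaks in *pGAL-3Flag-CSE4* and on 1 library per strain. These ratios count centres and leave out peak width. Between genes the median width was 121 bp in *psh1Δ pGAL-3Flag-CSE4* against 81 bp in *pGAL-3Flag-CSE4*. In interiors it was 51 bp against 61 bp, and at gene ends 71 bp against 61 bp. Counting centres therefore understates the gain in bases under peaks between genes. In *psh1Δ pGAL-3Flag-CSE4*, 0.944% of interior bases, 7.29% of gene-end bases and 43.8% of intergenic bases lay under ChIP peaks. In *pGAL-3Flag-CSE4* the shares were 0.0139%, 0.811% and 9%. By this measure too the interiors had the largest ratio. Both measures count only what passed 1 calling height, and the regions began from unequal levels in *pGAL-3Flag-CSE4*. Whether Psh1 acts more at interior sites was not tested. The interior ratio of ChIP centres was 37.7 for genes of at least 2500 bp and 42.5 with interiors starting 750 bp from each end. Input peaks moved the other way in interiors. The *psh1Δ* to *PSH1* ratio of interior input density was 0.161 (0.151 to 0.172) between the strains with the added copy and 0.572 (0.550 to 0.594) between those without it. At gene ends the same input ratios were 0.420 and 0.762, and between genes 0.663 and 0.963. Away from chromosome XI, fewer input peaks in *psh1Δ* interiors thus went with more ChIP peaks in the pair with the added copy, while the pair without it had no interior ChIP centre in either strain. On chromosome XI the input ratio with the added copy was 1.20 (1.06 to 1.36), beside 150 interior ChIP centres in *psh1Δ pGAL-3Flag-CSE4* and 0 in *pGAL-3Flag-CSE4*. The ChIP signal had the input subtracted before calling, and the part of the input in the ChIP values was not tested.

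To make genes of unequal length comparable, the middle 500 bp of each gene was taken as a window of fixed size. In *psh1Δ pGAL-3Flag-CSE4* a ChIP centre lay in 126 of 2005 middle windows (6.28%, 5.30 to 7.43), against 41.0% of 20966 windows of 500 bp tiled over the same arms. In *pGAL-3Flag-CSE4* 1 middle window (0.0499%) held a centre, against 14.9% of the tiles. In *psh1Δ 3Flag-CSE4* and *3Flag-CSE4* no middle window did, against 0.0238% and 0% of the tiles. Middle windows were also below the tiles in the inputs, but less so, at 11.7% against 45.5% in *psh1Δ pGAL-3Flag-CSE4*, 55.9% against 78.7% in *pGAL-3Flag-CSE4*, 40.6% against 69.4% in *psh1Δ 3Flag-CSE4* and 63.7% against 81.3% in *3Flag-CSE4*.

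Over whole interiors, 318 of 2014 genes (15.8%, 14.3 to 17.4) had at least 1 ChIP centre in *psh1Δ pGAL-3Flag-CSE4* and 6 genes (0.298%) in *pGAL-3Flag-CSE4*. Of the 318 genes, 223 had 1 centre, 61 had 2, 23 had 3 and 11 had more, up to 7. Interior input peaks were listed in 634 genes (31.5%) in *psh1Δ pGAL-3Flag-CSE4*, 1567 (77.8%) in *pGAL-3Flag-CSE4*, 1314 (65.2%) in *psh1Δ 3Flag-CSE4* and 1681 (83.5%) in *3Flag-CSE4*.

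Along the direction of transcription, 10 equal steps of the interior held 61, 53, 51, 44, 50, 33, 39, 42, 46 and 46 centres in *psh1Δ pGAL-3Flag-CSE4*. The 3′ side of the interior held 206 centres and the 5′ side 259, a ratio of 0.795 (0.659 to 0.959). The lean to the 5′ side was slight, and with interiors starting 750 bp from each end the ratio was 0.848 (0.657 to 1.09) and with chromosome XI kept in 0.852 (0.725 to 1.00), intervals that reach 1. The input of the same strain leaned to the 5′ side far more, with 301, 157, 131, 89, 76, 62, 62, 70, 71 and 93 centres in the same steps and a 3′ to 5′ ratio of 0.475 (0.418 to 0.539). The other inputs had ratios of 1.12 (1.07 to 1.17) in *pGAL-3Flag-CSE4*, 0.962 (0.905 to 1.02) in *psh1Δ 3Flag-CSE4* and 1.25 (1.19 to 1.31) in *3Flag-CSE4*.

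**Figure D2:**
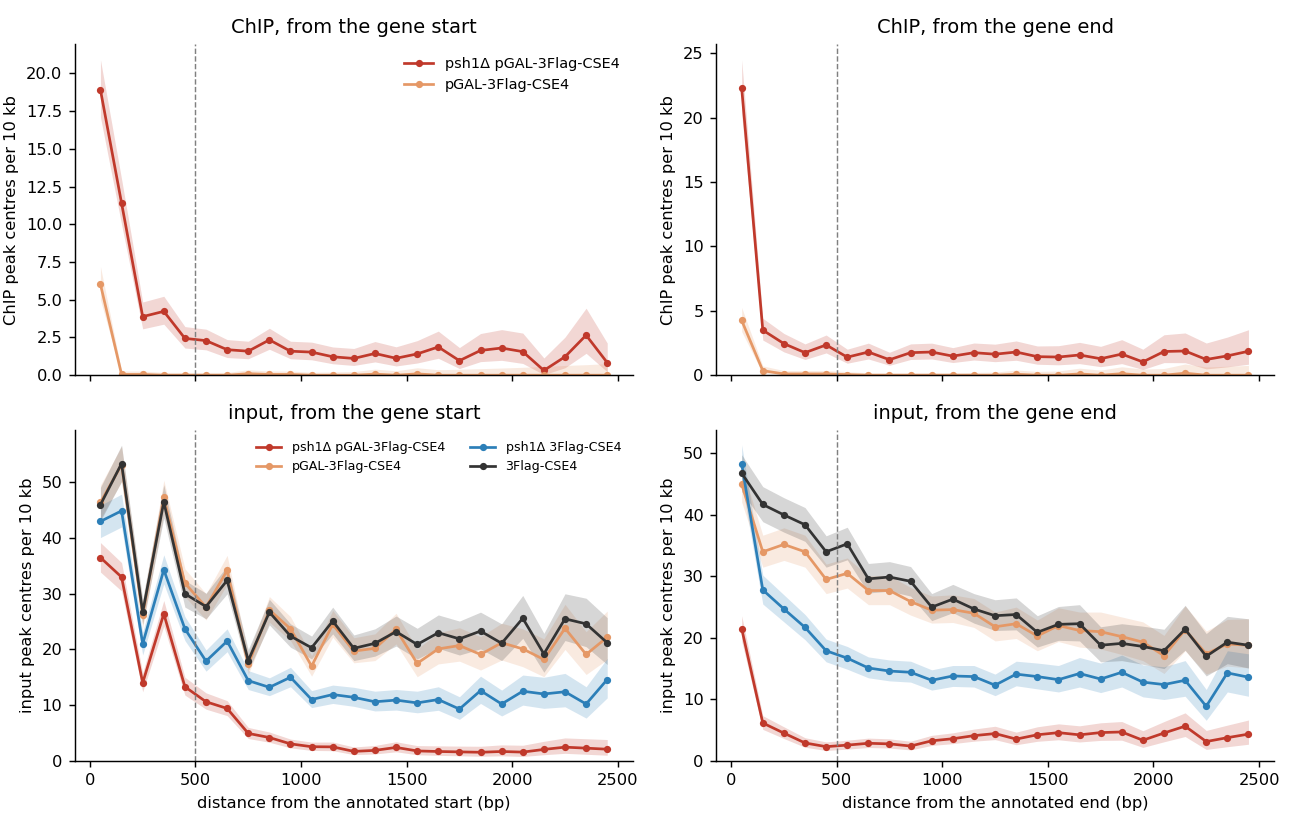
Peak centres per 10 kb in bins of 100 bp from the annotated start (left) and the annotated end (right) of the 2014 genes, for ChIP (above) and input (below) lists. Lines are densities, bands are 95% Poisson intervals, and the dashed line at 500 bp marks where interiors begin. The *psh1Δ pGAL-3Flag-CSE4* ChIP profile is steep within the gene ends and nearly flat beyond them, while its input keeps declining to about 1000 bp from the start.

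Measured from the annotated start, ChIP density in *psh1Δ pGAL-3Flag-CSE4* was 1.99 per 10 kb from 500 to 750 bp, 1.81 up to 1000 bp, 1.30 up to 1500 bp, 1.53 up to 2000 bp and 1.17 beyond. Its own input held 9.03, 3.86, 2.22, 1.65 and 2.47 per 10 kb over the same 5 distances. The *3Flag-CSE4* input stayed between 21.9 and 27.5. Measured from the annotated end, ChIP density lay between 1.32 and 1.70 at every distance.

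Longer genes had a lower density of ChIP peaks but, with more sequence, were more often hit. The density in *psh1Δ pGAL-3Flag-CSE4* was 1.98, 1.50, 1.63, 1.05 and 1.12 per 10 kb for genes from 1500 bp, from 2000 bp, from 3000 bp, from 4000 bp and from 6000 bp in length, each bin ending where the next begins. The share of genes with at least 1 centre was 10.6%, 15.0%, 23.8%, 27.1% and 35.3% in the same bins, and the share of middle windows with a centre was 7.27%, 6.18%, 5.53%, 3.87% and 3.12%. Genes of 3000 bp or more had 0.656 (0.519 to 0.833) of the density of genes under 2000 bp. The inputs had ratios of 0.601 (0.516 to 0.701) in *psh1Δ pGAL-3Flag-CSE4*, 0.648 (0.609 to 0.689) in *pGAL-3Flag-CSE4*, 0.753 (0.696 to 0.816) in *psh1Δ 3Flag-CSE4* and 0.635 (0.598 to 0.674) in *3Flag-CSE4*. The ChIP interval overlaps all 4 of these, so the length trend of the ChIP peaks was not separable from that of nucleosome calls.

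ChIP peaks were denser where nucleosomes were more densely called in *3Flag-CSE4*. Genes were grouped by the number of *3Flag-CSE4* input centres per kb of interior, a library that shares no reads with the *psh1Δ pGAL-3Flag-CSE4* ChIP. The ChIP density was 0.0425 per 10 kb in the 333 genes with no such centre, then 0.279, 0.718, 1.39, 2.53 and 3.61 per 10 kb as the input rose to above 0, 1, 2, 3 and 4 per kb, and 3.30 in the 271 genes with at least 5 per kb. The share of genes with a ChIP centre was 0.601% in the genes with no input centre and 31.1% in the 244 genes with 4 to 5 per kb.

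Base composition gave a similar gradient. Genes were put in 5 groups of nearly equal size by the A+T content of the interior, with limits of 58.7%, 60.7%, 62.1% and 63.7%. From the poorest to the richest in A+T, the ChIP density in *psh1Δ pGAL-3Flag-CSE4* was 0.512, 0.819, 0.853, 1.75 and 3.03 per 10 kb. The richest group had 137 of 403 genes with a centre (34.0%), against 17 of 403 (4.22%) in the poorest group, and its density was 5.92 times higher (3.81 to 9.65). The same ratio in the inputs was 2.87 (2.29 to 3.64) in *psh1Δ pGAL-3Flag-CSE4*, 2.20 (2.01 to 2.42) in *pGAL-3Flag-CSE4*, 2.48 (2.20 to 2.80) in *psh1Δ 3Flag-CSE4* and 1.14 (1.05 to 1.23) in *3Flag-CSE4*. The ChIP interval lies above all 4. MNase itself cuts A+T-rich DNA preferentially, and its part in these ratios was not tested.

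**Figure D3:**
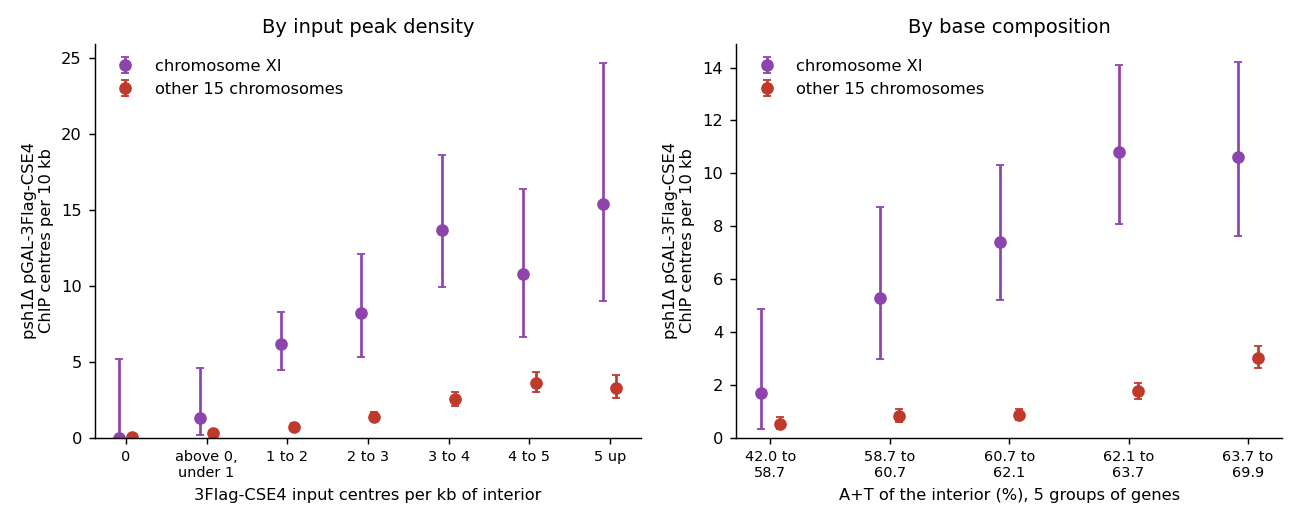
ChIP centres per 10 kb of interior in *psh1Δ pGAL-3Flag-CSE4*, by the number of *3Flag-CSE4* input centres per kb of interior (left) and by the 5 groups of interior A+T content (right), for chromosome XI and for the other 15 chromosomes. Points are densities and bars are 95% Poisson intervals. On the other 15 chromosomes the density runs from 0.0425 to 3.61 per 10 kb over the input classes and from 0.512 to 3.03 over the A+T groups.

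Interior ChIP peaks were narrow. Their median width was 51 bp (quartiles 41 and 71) in *psh1Δ pGAL-3Flag-CSE4*, where 41 bp is the narrowest width in the lists, and 6.67% were 101 bp or wider. At the ends of the same genes the median was 71 bp with 17.8% that wide, and between genes it was 121 bp with 67.8%. Of the 465 peaks, 1 centre lay under a second annotated gene and 3 lay in an intron.

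Away from chromosome XI, the local sequence of these peaks was slightly richer in A+T than the interiors at large. The 101 bp centred on an interior ChIP peak had a median A+T of 62.4%, against 61.6% over all interior bases. The median was 60.4% at gene ends and 63.4% between genes. Around interior input peaks it was also 62.4% in *pGAL-3Flag-CSE4*, and 59.4% to 61.4% in the other inputs. On chromosome XI the ChIP median was 60.9%, below the share of all interior bases there. A run of at least 5 A or 5 T occurred in 233 of the 465 windows (50.1%, 45.6 to 54.6), against 41.2% of 28881 windows of the same length tiled over all interiors. Around the interior input peaks the share was 40.0% in *psh1Δ pGAL-3Flag-CSE4*, 42.7% in *pGAL-3Flag-CSE4*, 39.3% in *psh1Δ 3Flag-CSE4* and 38.6% in *3Flag-CSE4*, close to the tiled share. Of the 6 *PES4* peaks printed above, 4 hold such a run. The windows were not matched by gene, and 208 of the 465 peaks lay in the group of genes richest in A+T. How far the choice of genes set the A+T and run values was not tested.

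Most interior Cse4 peaks sat where another strain had a nucleosome. Of the 465 centres in *psh1Δ pGAL-3Flag-CSE4*, 393 (84.5%) lay within 73 bp of an input centre of *psh1Δ 3Flag-CSE4*, although such places made up 19.7% of interior bases. The matching shares were 76.1% for the *pGAL-3Flag-CSE4* input (32.5% of bases) and 75.9% for the *3Flag-CSE4* input (34.2% of bases). For the strain's own input the share was 51.2% (5.26% of bases). At gene ends the 4 shares were higher, at 66.6% for the own input (23.6% of bases), 86.9% for *pGAL-3Flag-CSE4* (56.1%), 90.2% for *psh1Δ 3Flag-CSE4* (44.5%) and 87.6% for *3Flag-CSE4* (58.9%), but such places also made up more of the gene-end bases. Neighbouring ChIP centres within 1 gene were a median of 245 bp apart (147 pairs), against 185 bp for input centres in the same strain, 175 bp in *pGAL-3Flag-CSE4*, 205 bp in *psh1Δ 3Flag-CSE4* and 195 bp in *3Flag-CSE4*.

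The peaks of *pGAL-3Flag-CSE4* were a small subset of those without Psh1. All 7 interior peaks of *pGAL-3Flag-CSE4* (100%, 64.6 to 100) were overlapped by a peak of *psh1Δ pGAL-3Flag-CSE4*, whose peaks covered 0.944% of interior bases. In the other direction, 6 of the 465 peaks of *psh1Δ pGAL-3Flag-CSE4* (1.29%) were overlapped in *pGAL-3Flag-CSE4*. That share was held low by the 7 peaks of the smaller list and does not measure how far sites were shared. The overlapping peaks were wider without Psh1. In *MSH4* a peak of 531 bp in *psh1Δ pGAL-3Flag-CSE4* (chrVI:135630-136160) covered the 71 bp peak of *pGAL-3Flag-CSE4*. In *SPO75* a single peak of 471 bp covered both 51 bp peaks, and the other 4 were between 111 and 131 bp wide.

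In these 6 genes the interior counts were as follows. *SPO75* had 3 ChIP centres in *psh1Δ pGAL-3Flag-CSE4*, 2 in *pGAL-3Flag-CSE4*, and 0 in both strains without the galactose-driven copy, beside 3, 6, 5 and 5 input centres in the same order of strains. *MSH4* had 4, 1, 0 and 0 ChIP centres, beside 4, 8, 8 and 8 input centres. *SMC4* had 2, 1, 0 and 0, beside 1, 7, 3 and 6. In these 3 genes, as in the other 3, ChIP centres were listed in the strains with the galactose-driven copy and in neither of the others. *PHM7* and *CSF1* had 2, 1, 0 and 0 ChIP centres each, and *FKS3* had 1, 1, 0 and 0. *PHM7* was the poorest of the 6 in A+T, at 56.0% over its interior, and *SPO75* the richest at 66.7%.

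The genes with the most peaks were often on chromosome XI. Of the 8 genes with the most interior ChIP centres in *psh1Δ pGAL-3Flag-CSE4*, 5 lay on chromosome XI, and the other 3 were *RTT107* (VIII), *PES4* (VI) and *TCB2* (XIV). *RTT107*, a scaffold of the replication-stress response, had 7 ChIP centres in *psh1Δ pGAL-3Flag-CSE4* and 0 in each of the other strains, beside 4, 12, 10 and 10 input centres. Its first 5 centres lay 534, 724, 889, 1074 and 1269 bp after the annotated start, and the last 2 lay at 1684 and 2679 bp. *PES4* had 6, 0, 0 and 0 ChIP centres beside 6, 2, 4 and 3 input centres, in an interior of 69.6% A+T. *TCB2*, a tricalbin that tethers the endoplasmic reticulum to the plasma membrane, had 5, 0, 0 and 0 beside 4, 11, 7 and 9. *PES4* was the only 1 of the 3 whose own input had more centres than the *3Flag-CSE4* input.

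The longest genes varied widely. *REA1*, which encodes the ribosome assembly ATPase midasin and at 14733 bp is the longest member, had 0 interior ChIP centres in all 4 strains, beside 0, 27, 2 and 33 input centres. Its input thus nearly emptied in both *psh1Δ* strains. *TRA1*, the large subunit shared by the SAGA and NuA4 acetyltransferases (11235 bp), had 4, 0, 0 and 0 ChIP centres beside 11, 32, 30 and 23 input centres. *TOM1*, a HECT ubiquitin ligase (9807 bp), had 3, 0, 0 and 0 beside 6, 21, 7 and 19. *CSF1* (8877 bp) had 2, 1, 0 and 0 beside 3, 27, 15 and 28. *VPS13*, a lipid-transfer protein (9435 bp), and the Ras GTPase activators *IRA1* (9279 bp) and *IRA2* (9240 bp) had no ChIP centre in any strain, as did *GCN1* (8019 bp), a regulator of the Gcn2 kinase.

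With *REA1*, these last 4 genes were the longest members with at least 1 *3Flag-CSE4* input centre per kb and no ChIP centre. *GCN1* was named by that rule alone, the others also by length. Calls in the *3Flag-CSE4* input beside no ChIP centre were thus set by the choice of genes. *VPS13* had 2, 10, 18 and 15 input centres, *IRA1* 1, 24, 9 and 19, *IRA2* 1, 9, 9 and 21, and *GCN1* 0, 10, 0 and 8, in the same order of strains. In all 4, as in *REA1*, the *psh1Δ pGAL-3Flag-CSE4* input was the lowest or shared the lowest count.

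Textbook groups of long genes fell on either side of the 15.8% of all members. Away from chromosome XI, 0 of 9 chromatin remodelling ATPases (such as *INO80*, *SNF2*, *SWR1* and *CHD1*) and 0 of 6 large RNA polymerase subunits had an interior ChIP centre in *psh1Δ pGAL-3Flag-CSE4*. Nor did any of 8 highly expressed translation and glycolysis genes or any of 15 cytosolic tRNA synthetases. By contrast, 4 of 6 SMC proteins, the ring-forming ATPases of cohesin, condensin and the Smc5/6 complex, had one, and so did 4 of 4 kinases and relatives of the PI3 kinase family. These 4 are among the longest genes, between 7107 bp (*MEC1*) and 11235 bp (*TRA1*), and of all genes of at least 6000 bp 35.3% had one. Between these lay 3 of 9 motors (*KIP1*, *MYO1* and *KAR3*), 2 of 11 nucleoporins (*NUP192* and *NUP188*), 3 of 12 ABC transporters (*PDR15*, *BPT1* and *PDR10*) and 2 of 7 enzymes of fatty acid and cell wall synthesis (*CHS3* and *CHS1*). The lists are small, so the intervals are wide, for example 0% to 29.9% for the remodelling ATPases and 30.0% to 90.3% for the SMC proteins.

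Nucleosome calls also differed between these groups, and not always in the order of the ChIP shares. The highly expressed genes, which include *YEF3* (elongation factor 3), *PFK1*, *PFK2* and *PDC1*, had 0 input centres in every strain. The 15 synthetases had 12 in *3Flag-CSE4*. The SMC genes had 35.5 *3Flag-CSE4* input centres per 10 kb and the remodelling ATPases 17.4, against 23.3 over all members. The motors (20.3), the ABC transporters (22.7), the fatty acid and cell wall enzymes (19.3) and the nucleoporins (13.4) lay below 23.3. Their shares of genes with a ChIP centre (33.3%, 25.0%, 28.6% and 18.2%) lay above 15.8%, but every interval contains 15.8%. Shares also rise with gene length, as given above. ChIP density per 10 kb was 1.49 over all members. The motors (1.32), the fatty acid and cell wall enzymes (1.13) and the nucleoporins (0.687) lay below it, the ABC transporters (1.99) above. The interval of each density contains 1.49. Among the SMC genes, *SMC1* had 3 ChIP centres in *psh1Δ pGAL-3Flag-CSE4* beside 4, 11, 12 and 9 input centres, *SMC6* had 2 and *SMC5* had 1. *SMC3* had no ChIP centre despite 7, 13, 14 and 11 input centres, at least as many as any other gene of the list. Of the PI3 kinase family, *TRA1* had 4 centres, *TEL1* and *TOR1* 3 each and *MEC1* 2, all in *psh1Δ pGAL-3Flag-CSE4* alone.

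**Figure D4:**
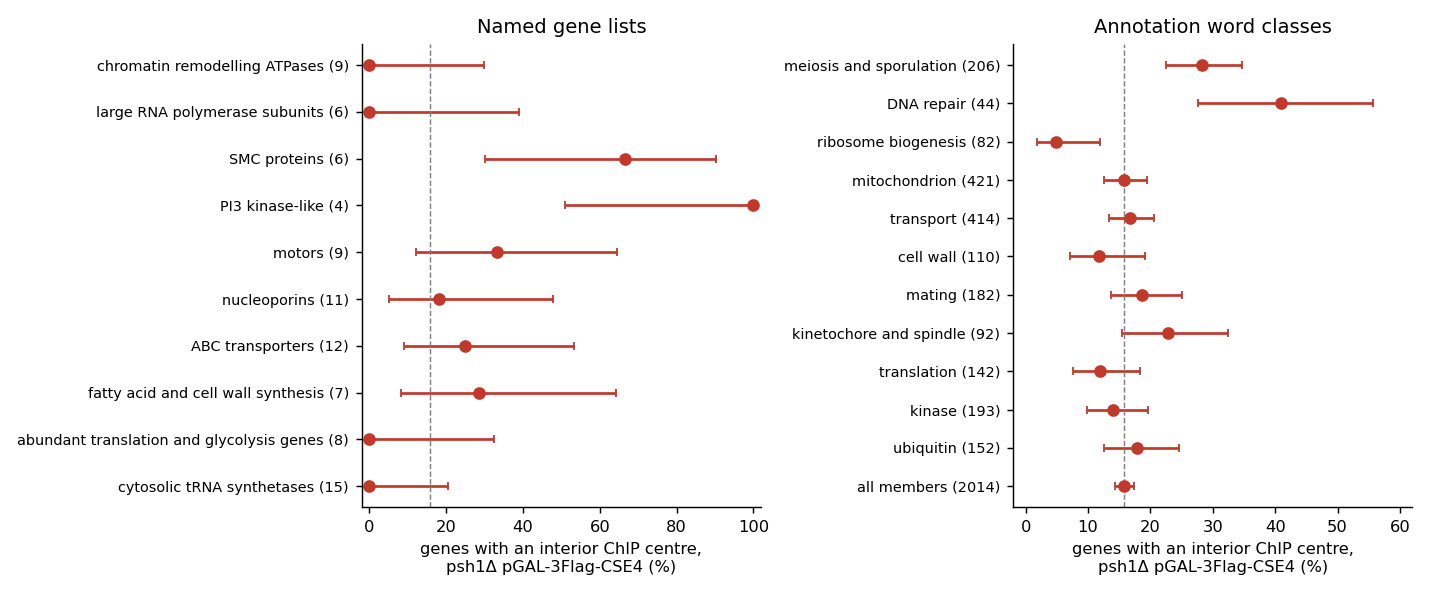
Share of genes with at least 1 interior ChIP centre in *psh1Δ pGAL-3Flag-CSE4* on the 15 chromosomes other than XI, for the named gene lists (left) and for classes of words in the annotation (right), with the number of genes in parentheses. Points are shares, bars are 95% Wilson intervals and the dashed line is the 15.8% of all 2014 members. Meiosis and sporulation (28.2%) and DNA repair (40.9%) lie above the line, ribosome biogenesis (4.88%) below it.

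The members were also sorted by words in their SGD descriptions, a grouping chosen after values were seen and so given with no test. Genes whose description mentions meiosis or sporulation had a ChIP centre in 58 of 206 interiors (28.2%, 22.5 to 34.7) in *psh1Δ pGAL-3Flag-CSE4*, and genes described with DNA repair in 18 of 44 (40.9%, 27.7 to 55.6). Of the genes in neither class, 248 of 1775 (14.0%) had one. Ribosome biogenesis stood at 4 of 82 (4.88%, 1.91 to 11.9), and classes such as mitochondrion (15.7%), transport (16.7%) and kinase (14.0%) lay close to all members. Of the 7 interior peaks of *pGAL-3Flag-CSE4*, 5 lay in 4 genes of the meiosis and sporulation class, namely *SPO75*, *MSH4*, *SMC4* and *FKS3*. The class held 206 of the 2014 genes and 330948 of the 3118923 interior bp. With so few peaks and a class chosen after values were seen, no preference was tested.

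Examples are named from the meiosis and sporulation genes with 2 or more ChIP centres, and so were picked for high counts. Away from chromosome XI, 58 of the 206 genes of the class had any centre. Among the examples were members of the MutS family of mismatch and crossover proteins. In *psh1Δ pGAL-3Flag-CSE4*, *MSH4* and *MSH6* had 4 ChIP centres each and *MSH5* had 3. Others were *REC8*, the meiotic cohesin kleisin (3), *SPO22*, a meiosis-specific protein of the synaptonemal complex initiation group (3), *HFM1*, a meiotic helicase (3), and *RAD50*, a subunit of the MRX nuclease complex (2). *MIP6*, the paralogue of *PES4*, had 4 ChIP centres in a 980 bp interior of 69.2% A+T, beside 4, 2, 2 and 3 input centres.

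Base composition and nucleosome calls moved with this class. The meiosis and sporulation genes had 28.1 *3Flag-CSE4* input centres per 10 kb, against 23.3 over all members. Within the group of genes richest in A+T, 34 of 58 meiosis and sporulation genes (58.6%) had a ChIP centre, against 103 of 345 others (29.9%). In that group their ChIP density was 6.52 per 10 kb (5.04 to 8.32), against 2.44 (2.05 to 2.87) in the others, and their *3Flag-CSE4* input density was 31.8 against 23.2.

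Chromosome XI differed from the other 15. In *psh1Δ pGAL-3Flag-CSE4* its 120 interiors held 150 ChIP centres, or 8.12 per 10 kb (6.88 to 9.53), 5.45 times (4.50 to 6.56) the density of the other chromosomes. The excess in centres was 2.45 times (2.11 to 2.82) at gene ends and 1.06 times (0.967 to 1.17) between genes. Between genes the ChIP peaks of chromosome XI were wider, with a median of 141 bp against 121 bp elsewhere. They covered 59.8% of intergenic bases there, against 43.8% on the other chromosomes. No interior centre was called on chromosome XI in *pGAL-3Flag-CSE4*, *psh1Δ 3Flag-CSE4* or *3Flag-CSE4*, which allows at most 0.200 per 10 kb in each. A ChIP centre lay in 62 of its 120 long genes (51.7%, 42.8 to 60.4), against 15.8% elsewhere. Both arms shared this, with 8.40 per 10 kb on the left and 7.62 on the right.

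Input peaks on chromosome XI were dense in the same strain. Its interior input density was 29.4 per 10 kb in *psh1Δ pGAL-3Flag-CSE4*, 24.5 in *pGAL-3Flag-CSE4*, 24.2 in *psh1Δ 3Flag-CSE4* and 25.1 in *3Flag-CSE4*. In *psh1Δ 3Flag-CSE4* it was thus not above the 2 strains with *PSH1*. The other 15 chromosomes held 3.57, 22.1, 13.3 and 23.3 per 10 kb in the same order of strains. Relative to them the chromosome XI densities were 8.25 times (7.43 to 9.15), 1.11 times (1.01 to 1.22), 1.81 times (1.64 to 2.00) and 1.08 times (0.978 to 1.18) as high. Peaks covered 49.5% of chromosome XI interior bases in the *psh1Δ pGAL-3Flag-CSE4* input and 72.4% in the *psh1Δ 3Flag-CSE4* input, against 27.3% in *pGAL-3Flag-CSE4* and 31.7% in *3Flag-CSE4*. The number of copies of this chromosome in the 2 *psh1Δ* strains was not measured here, and its part in these values was not tested.

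**Figure D5:**
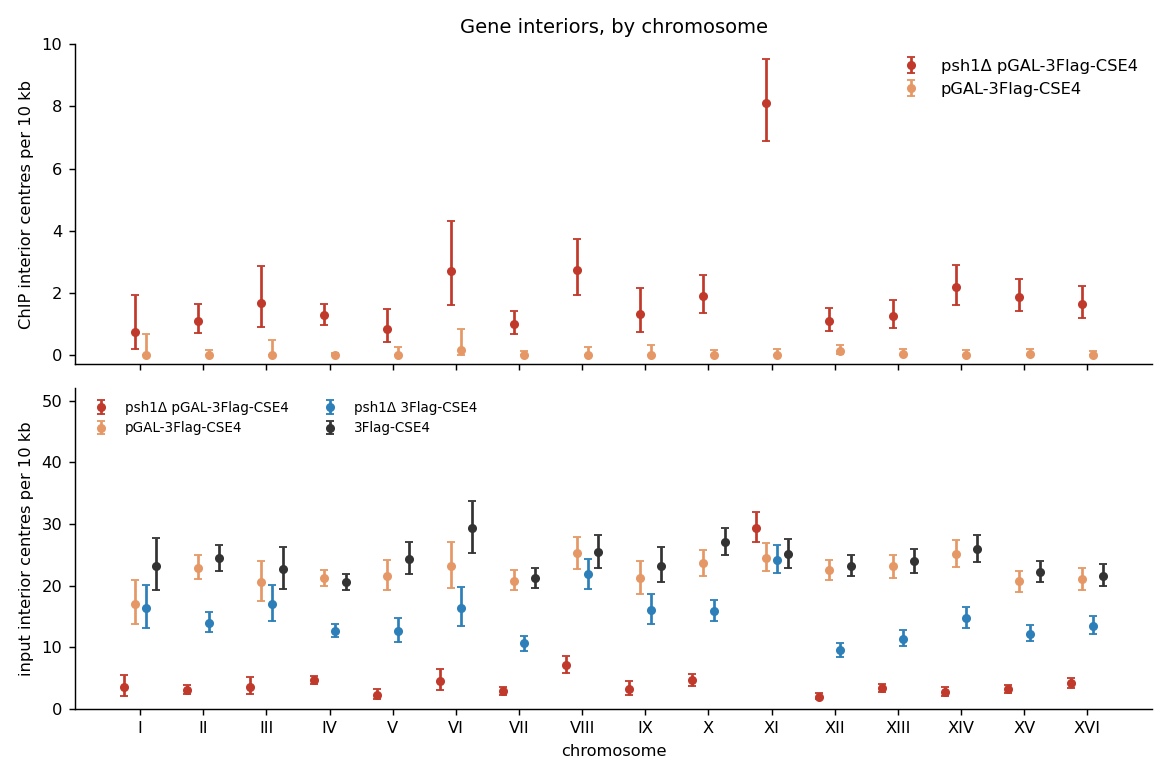
Peak centres per 10 kb of interior on each of the 16 chromosomes, for the 2 ChIP lists with interior peaks (above) and the 4 input lists (below). Points are densities and bars are 95% Poisson intervals; the ChIP lists of *psh1Δ 3Flag-CSE4* and *3Flag-CSE4* hold 0 interior centres and are not drawn. Chromosome XI stands at 8.12 per 10 kb in the *psh1Δ pGAL-3Flag-CSE4* ChIP, above the 0.749 to 2.73 of the other 15, and at 29.4 in its input, above 1.96 to 7.07.

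Among the other 15 chromosomes, interior ChIP density in *psh1Δ pGAL-3Flag-CSE4* ranged from 0.749 per 10 kb on chromosome I to 2.73 on chromosome VIII, with a median of 1.31. Chromosome VIII was also the highest in the inputs of *psh1Δ pGAL-3Flag-CSE4* (7.07), *pGAL-3Flag-CSE4* (25.2) and *psh1Δ 3Flag-CSE4* (21.8). The A+T gradient held within chromosome XI, with densities of 1.67, 5.30, 7.41, 10.8 and 10.6 per 10 kb from the poorest to the richest group.

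The chromosome XI genes with the most ChIP centres in *psh1Δ pGAL-3Flag-CSE4* were *DYN1* with 8, *TOR2* with 7, *URB1* with 6 and *UBP11* and *SET3* with 5 each, all with 0 in the other 3 strains. *DYN1*, the dynein heavy chain (12279 bp), had 21, 15, 12 and 22 input centres. *TOR2*, the kinase of TOR complex 2, had 19, 14, 11 and 9. *URB1*, a nucleolar ribosome assembly factor, had 9, 9, 8 and 8, *UBP11*, a ubiquitin protease, had 3, 6, 3 and 4, and *SET3*, a subunit of a histone deacetylase complex, had 5, 7, 2 and 5. In *UBP11*, then, the ChIP count was high while the input of the same strain was not above the others.

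Paralogues on other chromosomes, picked after their values were seen, are set side by side. *TOR2* on chromosome XI had 7 ChIP centres in *psh1Δ pGAL-3Flag-CSE4* and 19 centres in the input of that strain, against 3 and 5 for *TOR1* on chromosome X, although both interiors were 61.6% A+T and close in length (6425 and 6413 bp). *MYO3* on chromosome XI had 4 ChIP and 11 input centres, against 0 and 0 for *MYO5* on chromosome XIII. In the *3Flag-CSE4* input *TOR2* had 9 centres against 16 for *TOR1*, the opposite order, while *MYO3* had 9 against 2 for *MYO5*, the same order. Not every pair differed in ChIP, since *NUP100* on chromosome XI and *NUP116* on chromosome XIII had no ChIP centre, with 2 input centres in *psh1Δ pGAL-3Flag-CSE4* for *NUP100* and 1 for *NUP116*.

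A group of interiors gave no peak of any kind. In 244 of the 2134 members no input centre was listed in any of the 4 strains, and none of these had a ChIP centre. Of these, 41 lay mostly inside Ty retrotransposons, whose copies are nearly identical, and 203 did not. The 203 include *YEF3*, *CDC60* (leucyl-tRNA synthetase), *CRM1* (exportin), *KGD1* and *RPG1*, and the near-identical copies *ENA1*, *ENA2* and *ENA5*. Away from chromosome XI, the 291 members outside Ty elements with no *3Flag-CSE4* input centre had 0.777% of their bases under any *3Flag-CSE4* input peak, against 31.1% in the other members. *RPA190*, the largest RNA polymerase I subunit, was among them but had 7 input centres in *pGAL-3Flag-CSE4*. In the 244 genes the absence of a ChIP peak went with the absence of any called nucleosome.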

How the data were processed

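Input and anti-Flag ChIP libraries of 4 strains were used, 1 library per strain and type, grouped by the deposited labels. The authors aligned paired reads of these W303 strains with BWA to the S288C reference sacCer3, kept well-mapped proper pairs of mononucleosome size and called peaks with DANPOS2. ChIP signal was input-subtracted, scaled to centromere coverage within each strain and set to 0 at the ribosomal DNA, and 1 calling height served all strains. Settings for the input peaks are not given in the sources used here. The labels name BWA, CASAVA and SAMtools. The deposited files hold peak starts and ends in bp, on a grid of 10 bp, and a score that was 0 in every line, so no peak heights could be used.

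Positions are 1-based in R64 with the SGD annotation R64-5-1, and 0 peaks ran beyond a chromosome end. Python 3.11.15, numpy 2.4.6, scipy 1.17.1, pandas 2.3.3 and matplotlib 3.10.9 were used. Intervals (95%) are Wilson for shares, exact Poisson for densities, exact conditional for ratios of 2 counts and log-normal for ratios of ratios. Only the interval for ratios of 2 counts was tested for coverage on simulated data. A peak was placed by its centre, and a gap of 73 bp to an input centre counted as on a nucleosome. Named genes were the 8 members with the most interior ChIP centres in each strain with the galactose-driven copy (6 had any in *pGAL-3Flag-CSE4*), the 8 longest, the 5 longest with at least 1 *3Flag-CSE4* input centre per kb and no ChIP centre, and members of the lists, beside others marked as chosen later or given as examples of a class. Members and lists were chosen with earlier results of these data known. The strains could not be compared by a test, and read depths and coverage tracks entered no value. Alternatives were other margins, gene lengths, minimum widths (50 bp), merging of peaks closer than 50 bp, overlap in place of the centre, and chromosome XI kept in.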

Additional observations from a re-analysis of the deposited data

How the results depend on the processing

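Of 87 recomputed values, 69 stayed within the counting interval or, for counts of genes, within 1.5 times the value reported, 18 moved by more and 0 changed direction. The 318 genes with a ChIP centre became 243 with peaks of at least 50 bp and 380 with chromosome XI kept in. With chromosome XI kept in, the *psh1Δ pGAL-3Flag-CSE4* interior ChIP density was 1.86 per 10 kb, its ratio to gene ends 0.235, that ratio relative to the *3Flag-CSE4* input 0.406, and the *psh1Δ* to *PSH1* ratio of interior input 0.225 with the added copy and 0.595 without it. Peaks of at least 50 bp gave 1.10, 0.175, 0.144 and 0.537 for the density, the ratio to gene ends and the 2 input ratios. Leaving out bases in Ty elements or under a second annotated gene, and members then without a *3Flag-CSE4* input centre, gave a density of 1.75. This setting selects on input calls. Away from chromosome XI, 333 members had no *3Flag-CSE4* input centre in their interior, and 2 of these had a ChIP centre. Interiors starting 750 bp from each end gave a density of 1.32, an input ratio of 0.130 with the added copy and 189 genes with a ChIP centre, and genes of at least 2500 bp gave 1.34, an input ratio of 0.618 without the added copy and 166 genes. Both have fewer genes by construction. Counting any overlap of 1 bp gave a ratio to gene ends of 0.128. The input of the same strain as divisor gave 0.918. Leaving out chromosomes VI and VIII, which was chosen after seeing the data, gave a density of 1.40, a ratio to gene ends of 0.196 and input ratios of 0.154 and 0.557. The long to short ratio could not be computed from 2000 bp up, where no short genes remain. No paired analysis was possible because each strain has 1 library per type. Lists without heights limit these values: a density reflects the calling height, the input calls and mappability together, and 7 peaks carry every *pGAL-3Flag-CSE4* value.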

Other observations

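On chromosome XI in *psh1Δ pGAL-3Flag-CSE4*, the 3′ side of interiors held 77 ChIP centres and the 5′ side 73. Their ratio was 1.05 (0.756 to 1.47), against 0.795 (0.659 to 0.959) on the other 15 chromosomes, and these intervals overlap. A run of at least 5 A or 5 T occurred around 39.3% (31.9 to 47.3) of the chromosome XI peaks, against 50.1% (45.6 to 54.6) elsewhere, and these intervals overlap too. The share of centres within 73 bp of a *psh1Δ 3Flag-CSE4* input centre was 34.0% (26.9 to 41.9) on chromosome XI, against 84.5% (80.9 to 87.5) elsewhere. Such places made up 35.6% of interior bases on chromosome XI and 19.7% elsewhere, so on chromosome XI the share was close to that of the bases. The input peaks of that strain had a median width of 111 bp on chromosome XI, against 71 bp elsewhere, and reached 6711 bp. For the *3Flag-CSE4* input the share was 66.7% on chromosome XI (36.6% of bases), against 75.9% elsewhere (34.2% of bases).

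The 43 members that lie mostly inside Ty elements included 2 with a ChIP centre in *psh1Δ pGAL-3Flag-CSE4*. Other classes of words in the gene descriptions, chosen after values were seen, lay near the 15.8% of all members. They were kinetochore and spindle at 22.8% (15.4 to 32.4), mating at 18.7%, ubiquitin at 17.8%, translation at 12.0% and cell wall at 11.8% (7.04 to 19.2).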
